A study of Danio rerio with 11 samples.

Results

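The genes described here encode the enzymes that oxidise, reduce and conjugate small molecules: 67 genes whose symbols belong to the cytochrome P450 families (cyp, 35 genes, without the cyp51 sterol demethylase), the aldehyde dehydrogenases (aldh, 12), the short-chain dehydrogenase/reductases of the dhrs group (11), the sulfotransferases (sult, 8) and the UDP-glucuronosyltransferases (ugt, 1). They were picked by symbol out of 7792 named genes on an Affymetrix zebrafish array, with earlier results of these data known. The probe set with the highest mean level over the 11 arrays stood for each gene. Livers were taken out of larvae 4 days after fertilisation, and 1 array was run per sample. The 3 ahcy mutant samples (numbers 3, 4 and 6) were ahcy -/- and had vehicle injected into the yolk at 2 days. The 4 azacytidine samples (numbers 1, 2, 5 and 6) were ahcy +/+ and had 1 mM azacytidine injected into the yolk at 2 days. The 4 control samples (numbers 1, 2, 4 and 8) were ahcy +/+ and had vehicle injected at the same time, so all 3 groups were injected. The ahcy gene encodes S-adenosylhomocysteine hydrolase, which removes the by-product of methylation reactions, and azacytidine is a cytidine analogue that traps DNA methyltransferases once it is built into DNA. In the mutants every tissue lacks both wild-type alleles; the labels do not give the allele, the number of larvae behind a sample or whether samples came from separate clutches. P-values therefore rest on how far these samples differed from each other, and that may be technical.

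Liver handles foreign and endogenous lipophilic molecules in steps. Cytochromes P450 add an oxygen atom, using electrons passed on by partner proteins, aldehyde dehydrogenases and short-chain dehydrogenases act on the alcohols, aldehydes and ketones that result, and transferases then attach glucuronic acid or sulfate so that the product can be excreted. The same families also build and break down bile acids, steroid hormones, vitamin D and retinoic acid, and many of their genes are most active in hepatocytes.

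Values are log2 levels of single probe sets, and a difference of 1 is a doubling of the measured level. Levels of different genes cannot be compared as amounts of transcript, because probe sets differ in response. A gene was called higher or lower when the adjusted p of a moderated linear model (limma, Benjamini-Hochberg over 12784 probe sets, 2-sided) was under 0.05, and a difference is given ± its standard error. The targeted transcript ahcy measured 12.11, 11.47 and 11.5 in mutants, 12.34, 12.34, 12.06 and 12.61 in azacytidine livers and 12.45, 12.3, 12.36 and 12.47 in controls. The mutant level fell by 0.7 ± 0.16 relative to controls (adjusted p = 0.0175), a call lost without mutant 4 or mutant 6 (adjusted p up to 0.076), and a transcript level does not check a mutation whose position is not given. The 22 measured hepatocyte markers were high on every array, with mean levels of 9.81 to 10.75 in mutants, 11.99 to 12.21 in azacytidine livers and 11.59 to 11.81 in controls.

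Tissue markers other than those of hepatocytes also differed between arrays. The mean of 23 skeletal muscle markers was 9.98 to 10.6 in mutants, 7.7 to 8.41 in azacytidine livers and 8.32 to 9.23 in controls, and the mean of 19 epidermis markers was 8.93 to 9.99 in mutants, 6.59 to 7.6 in azacytidine livers and 7.56 to 8.13 in controls. In mutants against controls 13 muscle and 13 epidermis markers were higher and none was lower, while 12 of the 22 hepatocyte markers were lower and none was higher. Of all probe sets 6.23% were higher and 5.87% lower. Control 4 stood apart with a mean of 8.02 over 22 neural markers, where the other controls had 5.4 to 7.22, and control 2 with a mean of 9.91 over 16 exocrine pancreas markers, where the other controls had 5.45 to 7.37. Azacytidine 6 had an intestine marker mean of 8.85 over 16 genes, against 6.9 to 7.14 in the other azacytidine livers. Measures of RNA integrity and amplification did not run one way. Those of actin come from acta1, a muscle gene, and what muscle RNA contributed to them was not tested. The gap between the 3' and the 5' probe sets of actin was 5.59 to 6.21 in mutants, above all other arrays. It was 1.88 to 4.02 in azacytidine livers and 3.16 to 4.92 in controls. The gap between the 3' and middle probe sets of actin was 1.8 to 2.89 in mutants, 3.48 to 3.8 in azacytidine livers and 2.76 to 3.92 in controls. The same gap of gapdh was 3.22 to 4.53 in mutants, 2.51 to 2.94 in azacytidine livers and 2.71 to 4.36 in controls. In whole dissected livers, fewer hepatocytes and less RNA per hepatocyte cannot be told apart. What these shifts contributed to the differences below was not tested.

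Most members that changed did so in the mutants, and downward. In mutants against controls, 21 of 67 members (31.3%) were lower and 2 (2.99%) were higher, where 5.87% of all probe sets were lower and 6.23% were higher. In mutants against azacytidine livers, 27 members (40.3%) were lower and 7 (10.4%) were higher, where the shares over all probe sets were 11.1% and 18.2%. In azacytidine livers against controls limma called no member in either direction, where 0.399% of all probe sets were higher and 0.18% lower, and at an unadjusted p under 0.05 there were 4 members higher and 3 lower, where 5.23% and 9.93% of all probe sets were. The median difference of the members was -0.52 in mutants against controls (all probe sets 0.08), -0.63 in mutants against azacytidine livers (all probe sets 0.14) and 0.06 in azacytidine livers against controls (all probe sets -0.05). Mutant levels lay wholly below all control levels for 28 members and wholly above them for 3, where 10.6% and 12.0% of all probe sets did so. Set against azacytidine livers, mutants lay wholly below for 25 members and wholly above for 5, where 13.8% and 23.5% of all probe sets did so. Both mutant comparisons use the same mutant arrays, and both comparisons with control use the same controls, so their counts are not independent.

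**Figure D1:**
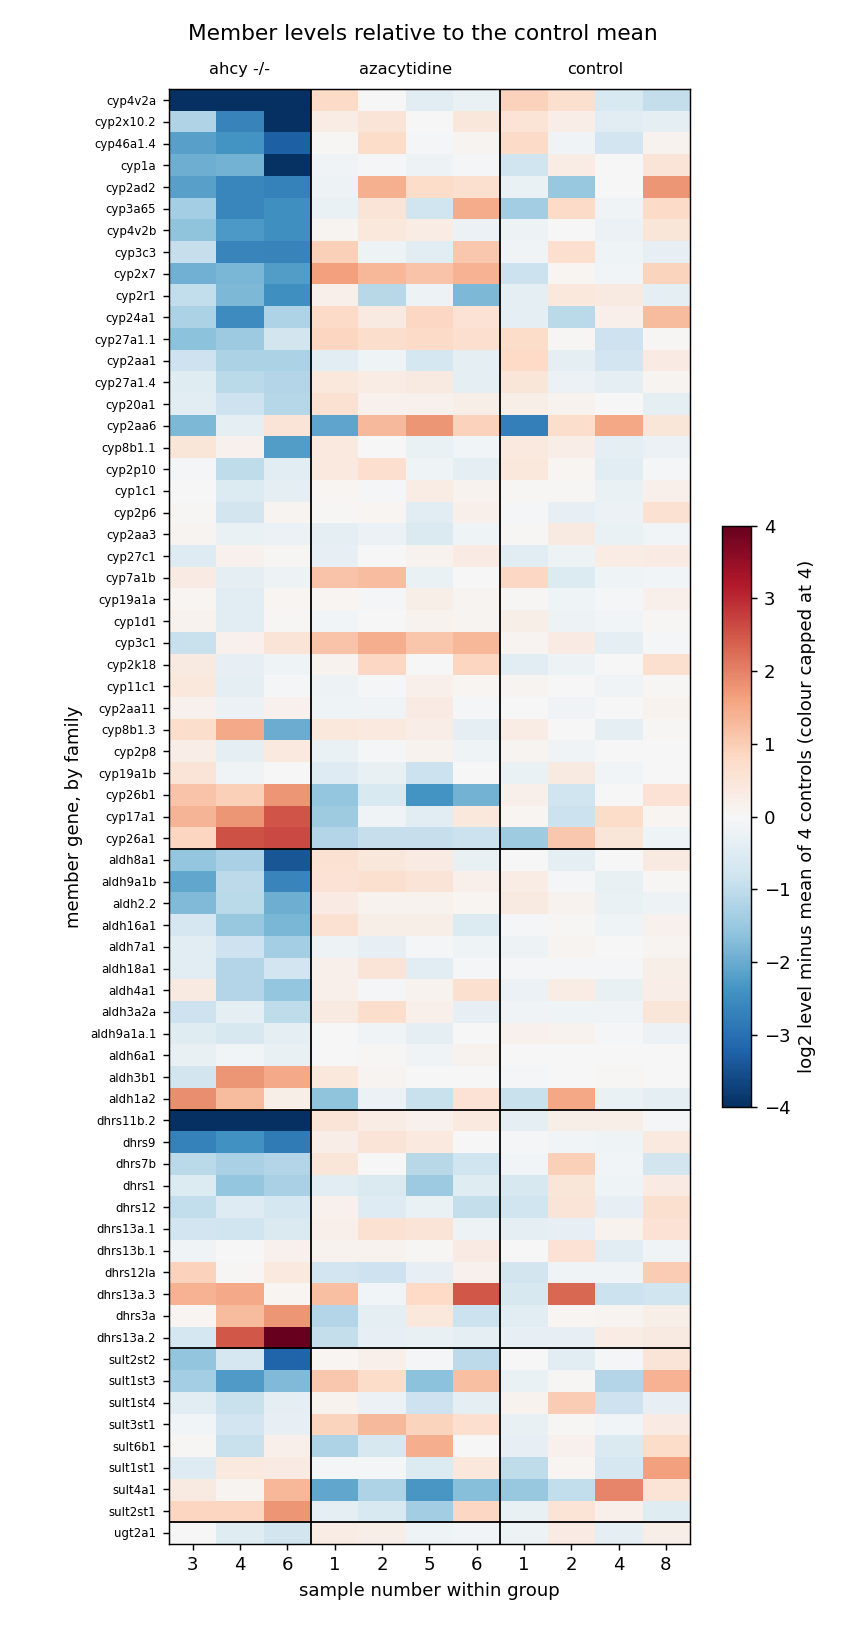
Log2 level of each of the 67 members (rows, by family, sorted by the mutant minus control difference) on each of the 11 arrays (columns), shown as the deviation from the mean of the 4 controls, with the colour scale capped at 4. The 3 ahcy -/- columns are blue across the upper part of the cyp, aldh and dhrs blocks, the 4 azacytidine columns are mostly pale, and cyp26a1, cyp17a1 and dhrs13a.2 are red in at least 2 of the mutants.

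By family, 12 of 35 cyp genes (34.3%) were lower and 2 (5.71%) higher in mutants against controls (median -0.5). Of all probe sets 5.87% were lower and 6.23% higher, so the higher share of cyp genes was near that of all probe sets. Among the aldehyde dehydrogenases 6 of 12 were lower and none higher (median -0.79), among the dhrs genes 2 of 11 were lower and none higher (median -0.72), and among the sulfotransferases 1 of 8 was lower and none higher (median -0.31). The calls were unevenly spread over signal level. Of the 38 members whose mean level lay above the median of all probe sets (6.03), 19 were lower and none was higher. Of the 29 at or below it 2 were lower and 2 higher. Over all probe sets the same split gave 644 lower and 407 higher of 6388 above that level, and 106 lower and 390 higher of 6396 at or below it. The 22 hepatocyte markers had a median difference of -0.82 in the same comparison, beside -0.52 for the 67 members. The median was -0.99 for the 38 members above that level and -0.08 for the 29 at or below it.

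**Figure D2:**
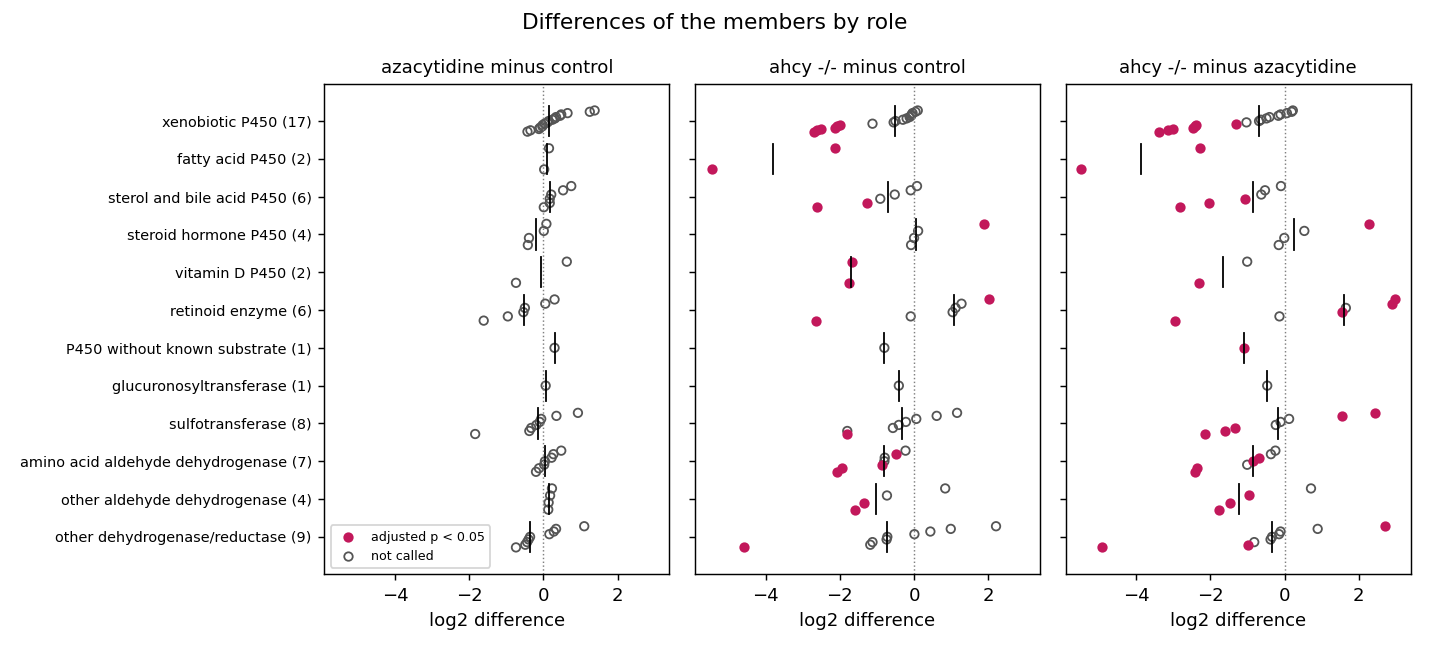
Log2 difference (x axis) of each member in the 3 comparisons, grouped by the role of the enzyme (y axis, number of members in brackets). Filled points passed an adjusted p of 0.05, open points did not, and the vertical bar is the median of the group. Open points alone fill the azacytidine minus control panel, whereas filled points reach -5.46 in the ahcy -/- minus control panel.

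The families cyp1, cyp2 and cyp3 act on foreign compounds. Without cyp2r1, which is given below with the vitamin D enzymes, they held 17 members. Of these 6 (35.3%) were lower in mutants against controls and none was higher (median -0.5). Over all probe sets 5.87% were lower and 6.23% higher. Transcripts of cyp1a, the P450 induced through the aryl hydrocarbon receptor, were at 10.13, 10.19 and 8.14 in mutants, 11.95, 12.03, 11.89 and 12.01 in azacytidine livers and 11.29, 12.39, 12.07 and 12.62 in controls. All mutants lay below every other array, with mutant 6 lowest, and cyp1a was 6.09-fold lower than in controls (difference -2.61 ± 0.44, adjusted p = 0.00317). For cyp2x7, a fish-specific member of the CYP2 group, levels were 5.54, 5.61 and 5.2 in mutants, 9.08, 8.78, 8.6 and 8.85 in azacytidine livers and 6.6, 7.54, 7.33 and 8.33 in controls. The 3 groups did not overlap at all for this gene: mutants were at the bottom, controls in the middle and azacytidine livers at the top. Mutants differed by -2 ± 0.35 from controls (adjusted p = 0.00384) and by -3.38 ± 0.35 from azacytidine livers (adjusted p = 8.1e-05), while azacytidine livers differed by 1.38 ± 0.32 from controls and missed the threshold (adjusted p = 0.0792).

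The other 4 lower genes of this group were cyp2x10.2, cyp2ad2, cyp3a65 and cyp3c3. The fish-specific cyp2x10.2 fell by 2.7 ± 0.55 (adjusted p = 0.00869), with levels of 7.93, 6.44 and 4.9 in mutants, 9.1 to 9.63 in azacytidine livers and 8.71 to 9.66 in controls. Its mutant values were widely spread, yet none reached the lowest control. The gene cyp2ad2 fell by 2.5 ± 0.61 (adjusted p = 0.0207), cyp3a65, the zebrafish relative of the main mammalian drug-metabolising CYP3A enzymes, by 2.14 ± 0.61 (adjusted p = 0.0409) and cyp3c3 by 2.08 ± 0.49 (adjusted p = 0.0182). The 3 probe sets of cyp2ad2 all had lower means in mutants than in controls, with differences of -2.5, -1.27 and -0.46, and the last 2 missed the threshold. The gene cyp3c1, which has 1 coding gene between it and cyp3c3 on the reference assembly, was at 6.13, 7.21 and 7.55 in mutants and 6.67 to 7.36 in controls, a difference of -0.06 ± 0.33.

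No call was made against controls for the remaining 11 genes of this group, among them the other cyp1 genes cyp1c1 and cyp1d1 and the clustered cyp2aa and cyp2p genes. The largest difference of these was that of cyp2aa1, -1.12 ± 0.34 (adjusted p = 0.0511), with mutants at 5.52 to 5.97 below all controls at 6.03 to 7.59. It passed under 6 of the other settings tried, among them the filter on dim probe sets (adjusted p = 0.0442). Of all members, cyp2aa6 had the largest spread within azacytidine livers and within controls: 1 array in each group was low, mutant 3 at 5.68, azacytidine 1 at 5.38 and control 1 at 4.74, and the other arrays lay between 7.13 and 9.26.

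Both members of the CYP4V group were lower in mutants. Human CYP4V2 hydroxylates the end of fatty acid chains and is known from an inherited retinal lipid disorder. For cyp4v2a, levels were 1.57, 2.65 and 0.46 in mutants, 7.8, 7.01, 6.6 and 6.75 in azacytidine livers and 7.93, 7.66, 6.42 and 6.08 in controls. Mutant values were far below all others and below the 10th percentile of their own arrays (4.37 to 4.51), taken here as the level of background. The fitted difference of -5.46 ± 0.55 (adjusted p = 0.000148) is therefore loosely determined; with levels under that percentile set to it, the gene still fell by 2.58 (adjusted p = 0.00363). Its paralogue cyp4v2b was at 7.11, 6.42 and 6.24 in mutants, 8.83, 9.14, 9 and 8.46 in azacytidine livers and 8.49, 8.68, 8.46 and 9.2 in controls. It fell by 2.12 ± 0.3 against controls (adjusted p = 0.00109) with no overlap between mutants and either other group.

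**Figure D3:**
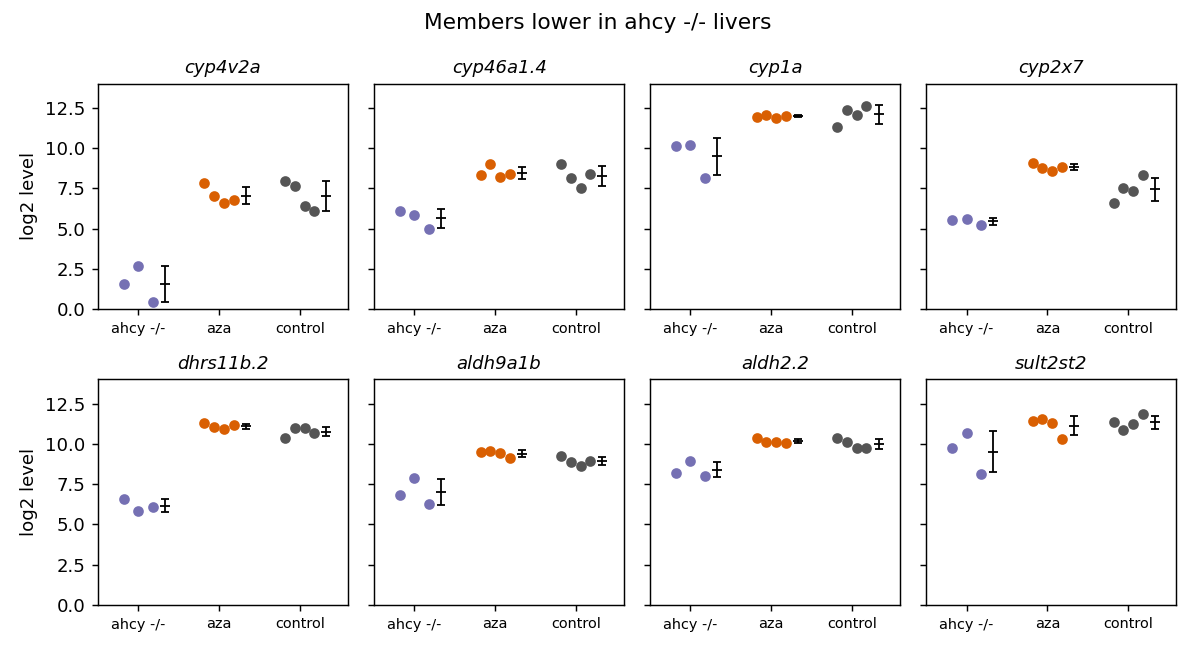
Log2 level (y axis) of 8 members that were lower in ahcy -/- livers than in controls; each point is 1 array, and the bar beside each group is its mean ± SD (n = 3 ahcy -/-, 4 azacytidine labelled aza, 4 control). In all 8 panels every mutant point lies below every control point, and for cyp4v2a the mutant points lie between 0.46 and 2.65.

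Of 6 P450 genes that act on sterols and bile acids, 2 (33.3%) were lower in mutants against controls and none higher. Over all probe sets 5.87% were lower and 6.23% higher. The mammalian counterpart of cyp46a1.4 hydroxylates the cholesterol side chain, and this transcript was at 6.09, 5.86 and 4.98 in mutants, 8.32, 8.99, 8.18 and 8.37 in azacytidine livers and 9.03, 8.12, 7.49 and 8.4 in controls. Mutants were below all other arrays, 6.13-fold lower than controls (difference -2.62 ± 0.39, adjusted p = 0.00151). The second was cyp27a1.1, a mitochondrial sterol hydroxylase of bile acid synthesis, which fell by 1.28 ± 0.32 (adjusted p = 0.0243) although control 4 at 5.03 lay below mutant 6 at 5.1. Its near neighbour cyp27a1.4 had a difference of -0.91 ± 0.29 (adjusted p = 0.0592) on the probe set with the higher mean, and -1.38 ± 0.37 (adjusted p = 0.0309) on a second probe set. No call was made for cyp7a1b, of the family that starts classical bile acid synthesis, or for cyp8b1.1 and cyp8b1.3, which hydroxylate the steroid nucleus of bile acids. Mutants disagreed with each other there: cyp8b1.1 was at 10.14, 9.83 and 7.43 in mutants against 9.25 to 10.03 in controls, with only mutant 6 low. On a second probe set of cyp8b1.1 mutant 6 was at 5.97, within controls at 5.86 to 6.29 (difference of mutants 0.11 ± 0.26, adjusted p = 0.84).

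Transcripts of both vitamin D enzymes were called lower in mutants against controls. Of 11 fits that left out 1 array, the call was lost in 5 for cyp2r1 and in 10 for cyp24a1. The activating hydroxylase gene cyp2r1 fell by 1.75 ± 0.48 (adjusted p = 0.0358), with mutants at 7.38 to 8.86 and controls at 9.43 to 10.24. The inactivating hydroxylase gene cyp24a1 fell by 1.67 ± 0.48 (adjusted p = 0.042), with mutants at 6.98 to 8.26 and controls at 8.4 to 10.74. Neither overlapped between mutants and controls. Against azacytidine livers only cyp24a1 passed the test (-2.3 ± 0.48, adjusted p = 0.00459), and for cyp2r1 the difference was -1.01 ± 0.48 (adjusted p = 0.138).

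Of the 4 steroid hormone P450 genes, cyp17a1, whose enzyme directs steroids toward cortisol and androgens, was higher in mutants. Its levels were 6.29, 6.67 and 7.43 in mutants, 3.5, 4.78, 4.5 and 5.33 in azacytidine livers and 4.98, 4.05, 5.66 and 4.98 in controls. Every mutant exceeded every other array, and the difference was 1.88 ± 0.45 against controls (adjusted p = 0.0191) and 2.27 ± 0.45 against azacytidine livers (adjusted p = 0.00355). The name of its probe set marks that its probes may match more than 1 transcript. No difference was called for cyp11c1, which makes cortisol, or for the aromatases cyp19a1a and cyp19a1b, which make estrogens, and their differences from controls lay between -0.08 and 0.11.

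Of 6 enzyme genes of retinoid metabolism, 1 was higher and 1 lower in mutants against controls, where 6.23% and 5.87% of all probe sets were. The median of the 6 was 1.08. Retinoic acid is made from retinol in 2 oxidation steps and destroyed by P450s of the cyp26 family, which retinoic acid itself induces. The retinoic acid hydroxylase gene cyp26a1 was at 6.57, 8.28 and 8.36 in mutants, 4.56, 4.81, 4.81 and 4.88 in azacytidine livers and 4.31, 6.81, 6.22 and 5.56 in controls. Mutants 4 and 6 stood above all other arrays, mutant 3 lay below control 2, and azacytidine livers varied little. The difference was 2.01 ± 0.54 in mutants against controls (adjusted p = 0.0326) and 2.97 ± 0.54 against azacytidine livers (adjusted p = 0.00228). Against controls the call of cyp26a1 was lost in 4 of the 11 fits that left out 1 array. Its relative cyp26b1 was at 9.5, 9.29 and 10.1 in mutants, 6.81, 7.75, 5.95 and 6.45 in azacytidine livers and 8.55, 7.56, 8.36 and 8.93 in controls. Mutants lay above all other arrays and azacytidine livers at or near the bottom, with only azacytidine 2 above control 2. The test was passed in mutants against azacytidine livers (2.89 ± 0.43, adjusted p = 0.000741), and it was missed both against controls (1.28 ± 0.43, adjusted p = 0.0764) and in azacytidine livers against controls (-1.61 ± 0.4, adjusted p = 0.0952). The other 2 probe sets of cyp26b1 had the same signs, and 1 of them passed against controls (1.27 ± 0.38, adjusted p = 0.0494).

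Of the members upstream of retinoic acid, only dhrs9 was called against controls, and it was lower. Outside the members, rdh1 was also lower (-3.85 ± 0.59, adjusted p = 0.00186). The genes rdh10b (-0.36 ± 0.29) and rdh12l (0.02 ± 0.6) were not called. The human counterpart of dhrs9 oxidises retinol and some steroids, and dhrs9 was at 8.44, 8.71 and 8.31 in mutants, 11.41, 11.65, 11.54 and 11.14 in azacytidine livers and 11.06, 11.02, 10.95 and 11.51 in controls. The mutant arrays lay over 2 units below all others, and dhrs9 was 6.27-fold lower than in controls (difference -2.65 ± 0.2, adjusted p = 2.43e-05). The retinaldehyde reductase gene dhrs3a, which turns the aldehyde back into retinol, was at 5.38, 6.57 and 7.07 in mutants, 4.13, 4.91, 5.71 and 4.44 in azacytidine livers and 4.86, 5.37, 5.42 and 5.54 in controls. It was higher in mutants against azacytidine livers (1.54 ± 0.42, adjusted p = 0.0175) and missed the threshold against controls (1.04 ± 0.42, adjusted p = 0.136), with mutant 3 inside the range of both groups. The retinaldehyde dehydrogenase gene aldh1a2, which makes retinoic acid, had mutant levels of 7.88 to 9.51 against 6.76 to 9.2 in controls (1.12 ± 0.63, adjusted p = 0.292). For cyp27c1, the enzyme that turns vitamin A1 into vitamin A2 in zebrafish, the difference was -0.09 ± 0.25.

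**Figure D4:**
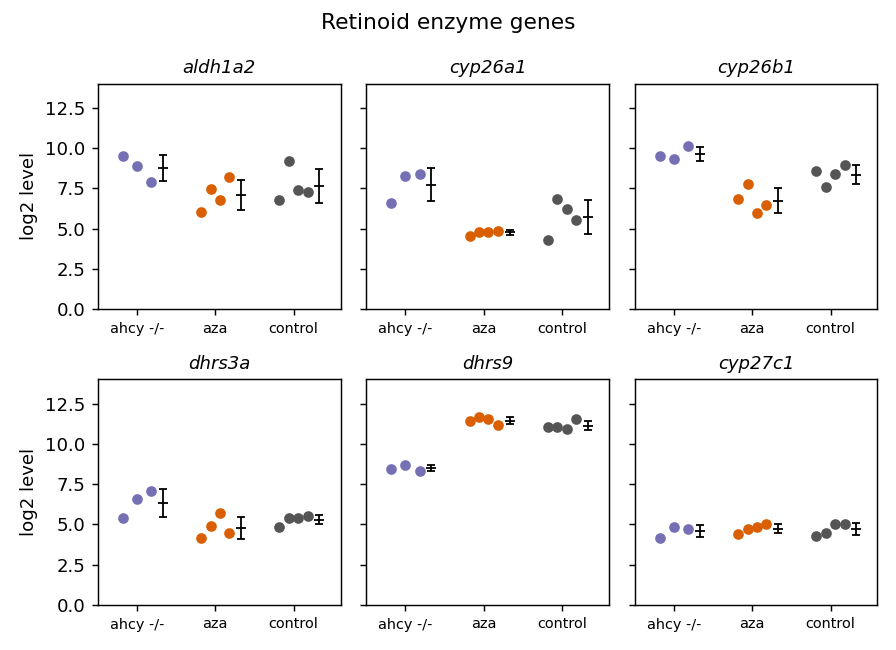
Log2 level (y axis) of the 6 enzyme genes of retinoid metabolism; each point is 1 array, and the bar beside each group is its mean ± SD (n = 3 ahcy -/-, 4 azacytidine labelled aza, 4 control). The mutant points of dhrs9 (8.31 to 8.71) lie below all others, those of cyp26b1 (9.29 to 10.1) lie above all others, and those of cyp27c1 overlap both other groups.

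Of the 12 aldehyde dehydrogenases, most of which turn aldehydes into acids, 6 (50%) were lower in mutants than in controls, where 5.87% of all probe sets were. The mitochondrial enzyme encoded by aldh2.2 clears acetaldehyde, and its transcript was at 8.21, 8.92 and 8.02 in mutants, 10.33, 10.12, 10.13 and 10.07 in azacytidine livers and 10.35, 10.12, 9.71 and 9.77 in controls. All mutants lay below all other arrays (difference from controls -1.6 ± 0.25, adjusted p = 0.00213). The other 5 lower genes were aldh16a1, by 1.34 ± 0.33 (adjusted p = 0.0203), and 4 genes of amino acid and amine breakdown.

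The largest fall in the family was that of aldh8a1, of the kynurenine route of tryptophan breakdown, at 8.98, 9.22 and 7.12 in mutants, 11.14, 10.98, 10.86 and 10.24 in azacytidine livers and 10.54, 10.18, 10.51 and 10.89 in controls (difference from controls -2.09 ± 0.43, adjusted p = 0.00916). Mutant 6 was lowest, and all mutants lay below every other array. The aminoaldehyde dehydrogenase gene aldh9a1b, whose mammalian counterpart serves carnitine synthesis, was at 6.83, 7.87 and 6.26 in mutants, 9.5, 9.56, 9.42 and 9.11 in azacytidine livers and 9.22, 8.87, 8.61 and 8.96 in controls (-1.93 ± 0.34, adjusted p = 0.00398). Its paralogue aldh9a1a.1 differed by only -0.49 ± 0.14 (adjusted p = 0.0379). The lysine breakdown gene aldh7a1 was at 11.63, 11.22 and 10.7 in mutants, 11.86, 11.72, 11.97 and 11.89 in azacytidine livers and 11.84, 12.16, 12.07 and 12.16 in controls (-0.87 ± 0.19, adjusted p = 0.0107).

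No call against controls was made for the other aldh genes of amino acid metabolism: aldh4a1 of proline breakdown, aldh6a1 of valine breakdown and aldh18a1 of proline synthesis, with differences of -0.79, -0.23 and -0.8. The only members of the family with estimates above 0 were aldh1a2 and aldh3b1. For aldh3b1 the mutants split, with 4.7 in mutant 3 and 7.2 and 6.96 in mutants 4 and 6, against 5.37 to 5.5 in controls. The difference of 0.84 ± 0.46 was not called (adjusted p = 0.279), and without mutant 3 it was 1.64 (adjusted p = 0.000639). That fit drops the mutant array that disagreed and keeps only mutants 4 and 6.

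The dhrs genes held the smallest p among all members. The human counterpart of dhrs11b.2 reduces ketosteroids, and its transcript was at 6.59, 5.84 and 6.07 in mutants, 11.28, 11.04, 10.93 and 11.14 in azacytidine livers and 10.38, 10.98, 10.98 and 10.68 in controls. Mutants lay more than 3 units below every other array, and the level was 24.1-fold lower than in controls (difference -4.59 ± 0.24, adjusted p = 7.89e-07). It was the only gene called against controls among the 9 dhrs genes outside retinoid metabolism.

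Of these 9, the gene with the largest estimate above 0 was dhrs13a.2, at 4.57, 7.74 and 10.11 in mutants, 4.31, 4.94, 4.97 and 4.88 in azacytidine livers and 4.95, 4.95, 5.55 and 5.62 in controls. The mutants spanned more than 5 units (SD 2.78), the widest spread of any member in any group, and mutant 3 lay below all controls while mutants 4 and 6 lay above them. The difference from controls was 2.21 ± 0.9 (adjusted p = 0.139), and without mutant 3 it was 3.66 (adjusted p = 0.00152). The fit without mutant 3 again drops the array that disagreed and keeps only mutants 4 and 6. The adjacent gene dhrs13a.1 had an estimate in the opposite direction (-0.72 ± 0.28, adjusted p = 0.12), with mutants at 8.81 to 9.02 below all controls at 9.21 to 10.17.

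The sulfotransferases also held adjacent genes with opposite estimates. The hydroxysteroid sulfotransferase gene sult2st2 was at 9.76, 10.66 and 8.13 in mutants, 11.42, 11.54, 11.29 and 10.29 in azacytidine livers and 11.35, 10.88, 11.25 and 11.83 in controls. It was 3.51-fold lower in mutants than in controls (difference -1.81 ± 0.49, adjusted p = 0.0341), the only sulfotransferase called in that comparison. Its neighbour sult2st1, with no coding gene between them on the reference assembly, was at 9.23, 9.21 and 10.11 in mutants, 8, 7.74, 6.98 and 9.2 in azacytidine livers and 8.07, 8.91, 8.57 and 7.88 in controls. Mutants exceeded every other array; the test was passed against azacytidine livers (1.54 ± 0.47, adjusted p = 0.0277) and missed against controls (1.16 ± 0.47, adjusted p = 0.134). The phenol sulfotransferase genes sult1st1, sult1st3 and sult1st4 were not called against controls, and sult1st3 had the largest difference of these (-1.8 ± 0.68, adjusted p = 0.112).

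A further member, sult4a1, encodes a sulfotransferase known mainly from brain. On the probe set that stood for the gene, levels moved with the neural markers. These levels were 7.38, 7.13 and 8.35 in mutants, 4.93, 5.79, 4.69 and 5.3 in azacytidine livers and 5.51, 6.02, 8.97 and 7.55 in controls. Controls 4 and 8 were high, as they were for the mean of 22 neural markers (8.02 and 7.22, against 5.93 in control 1 and 5.4 in control 2). Mutants exceeded azacytidine livers by 2.44 ± 0.68 (adjusted p = 0.019), in a comparison in which 13 of 22 neural markers were higher and none lower. Of all probe sets 18.2% were higher and 11.1% lower in that comparison. A second probe set of sult4a1 had a difference of 0.61 ± 0.31 there (adjusted p = 0.164). On it controls 1, 2, 4 and 8 were at 5.3, 5.05, 5.32 and 5.83, so control 4 did not stand out. The part of neural RNA in these values was not tested.

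The only glucuronosyltransferase with a probe set of its own was ugt2a1, at 4.26, 3.78 and 3.52 in mutants, 4.55, 4.5, 4.09 and 4.16 in azacytidine livers and 4.06, 4.59, 3.91 and 4.5 in controls. Mutant values lay below the 10th percentile of their arrays, and no difference was called (-0.41 ± 0.24 against controls, adjusted p = 0.316). Against azacytidine livers ugt2a1 was called lower with array weights (-0.68, adjusted p = 0.0261) and with cyclic loess (-0.71, adjusted p = 0.0375). With levels under that percentile set to it, the difference there was 0.05 (adjusted p = 0.777). A further 2 probe sets carry several ugt symbols each and were not counted as members. The probe set shared by ugt1a1 and ugt1ab was at 10.27, 8.46 and 8.14 in mutants, 11.62, 11.59, 10.89 and 11.38 in azacytidine livers and 10.96, 11.19, 11.39 and 11.57 in controls (difference of mutants from controls -2.32 ± 0.41, adjusted p = 0.00416). The probe set shared by ugt2a1, ugt2a2, ugt2a4 and ugt2a5 was at 8.33, 7.93 and 6.82 in mutants, 10.22, 10.35, 10.09 and 9.52 in azacytidine livers and 9.51, 9.34, 9.27 and 10.1 in controls (-1.86 ± 0.36, adjusted p = 0.0066). Both were lower on every mutant array than on any other array, and which of the genes gave the signal is not known.

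Of the 21 lower calls in mutants against controls, 12 held in all 11 fits that left out 1 array: aldh2.2, aldh7a1, aldh8a1, aldh9a1b, cyp1a, cyp2x10.2, cyp2x7, cyp46a1.4, cyp4v2a, cyp4v2b, dhrs11b.2 and dhrs9. Without mutant 4 or mutant 6, 13 lower and no higher calls were left. Those 2 arrays each decided the calls of aldh16a1, cyp2ad2, cyp3c3 and cyp17a1, whose adjusted p reached 0.0997, 0.0772, 0.0877 and 0.0911. Calls were also lost without control 1, control 8, mutant 4 or mutant 6 for cyp26a1 (adjusted p up to 0.134), without control 1, control 2, mutant 3 or mutant 4 for cyp27a1.1 (up to 0.0835), and without control 1, control 8, mutant 3 or mutant 6 for sult2st2 (up to 0.109). The least stable were cyp2r1, lost in 5 such fits (up to 0.15), cyp3a65 in 6 (up to 0.137), aldh9a1a.1 in 7 (up to 0.125) and cyp24a1 in 10 (up to 0.154). With controls 2 and 4 left out together, a choice made after seeing the data, 15 members were lower and 1 was higher.

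Proteins that serve these enzymes, from lists of receptors, partners, cofactor suppliers, further enzymes and transporters, were set beside the members. Of 39 receptors and P450 partners listed 19 were measured. In mutants against controls 6 of them (31.6%) were lower and 1 (5.26%) was higher, with a median of -0.42. Over all probe sets 5.87% were lower and 6.23% higher in that comparison. The electron carrier fdx1, which supplies mitochondrial P450s, averaged 9.88 ± 0.34 in mutants (SD, n = 3) and 11.4 ± 0.08 in controls (SD, n = 4), a called difference by limma (-1.51 ± 0.16, adjusted p = 0.000187). The haem-binding P450 partner pgrmc1 fell by 1.79 ± 0.19 (adjusted p = 0.000193), cytochrome b5 (cyb5a) by 1.35 ± 0.26 (adjusted p = 0.00614) and the oxysterol receptor nr1h3 by 1.7 ± 0.26 (adjusted p = 0.00201). All 4 lay below every control in every mutant.

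Of 13 measured cofactor supply genes (18 listed), 1 was lower and 1 higher. Each is 7.69%, near the shares over all probe sets (5.87% lower and 6.23% higher). The gene ugdh, whose enzyme makes the UDP-glucuronic acid that glucuronosyltransferases use, fell by 2.03 ± 0.3 (adjusted p = 0.00151), and slc35b2, a transporter of the sulfate donor into the Golgi, rose by 1.16 ± 0.26 (adjusted p = 0.0147). Among 28 other oxidising, reducing and hydrolysing enzymes measured (48 listed) 13 (46.4%) were lower and 1 (3.57%) was higher (median -0.65). They included the carboxylesterase gene ces2a (-3.88 ± 0.4, adjusted p = 0.000148), the bile acid synthesis gene hsd3b7 (-2.9 ± 0.32, adjusted p = 0.000193), the peroxisomal gene hsd17b4 (-2.26 ± 0.25, adjusted p = 0.000248) and the pyrimidine breakdown gene dpydb (-2.02 ± 0.29, adjusted p = 0.00126). Of 9 other transferases measured (33 listed) 5 (55.6%) were lower and none higher (median -1.16). Among them were gnmt, which consumes S-adenosylmethionine (-2.5 ± 0.26, adjusted p = 0.000148), and the glutathione transferases gstt1b, gstt1a and mgst3a, with differences of -1.59, -1.63 and -1.16. Of 8 transporters measured (28 listed) the organic anion carrier slco1d1 was lower (-2.19 ± 0.41, adjusted p = 0.00543) and the efflux pump abcc3 higher (0.99 ± 0.23, adjusted p = 0.0157, up to 0.0807 without mutant 4 or mutant 6). Of 12 retinoid binding and signalling genes measured (23 listed) the retinoic acid receptor gene rarga was the only one called, at 7.44, 7.78 and 7.63 in mutants against 5.44, 5.71, 6.78 and 5.3 in controls (1.81 ± 0.31, adjusted p = 0.00355).

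**Figure D5:**
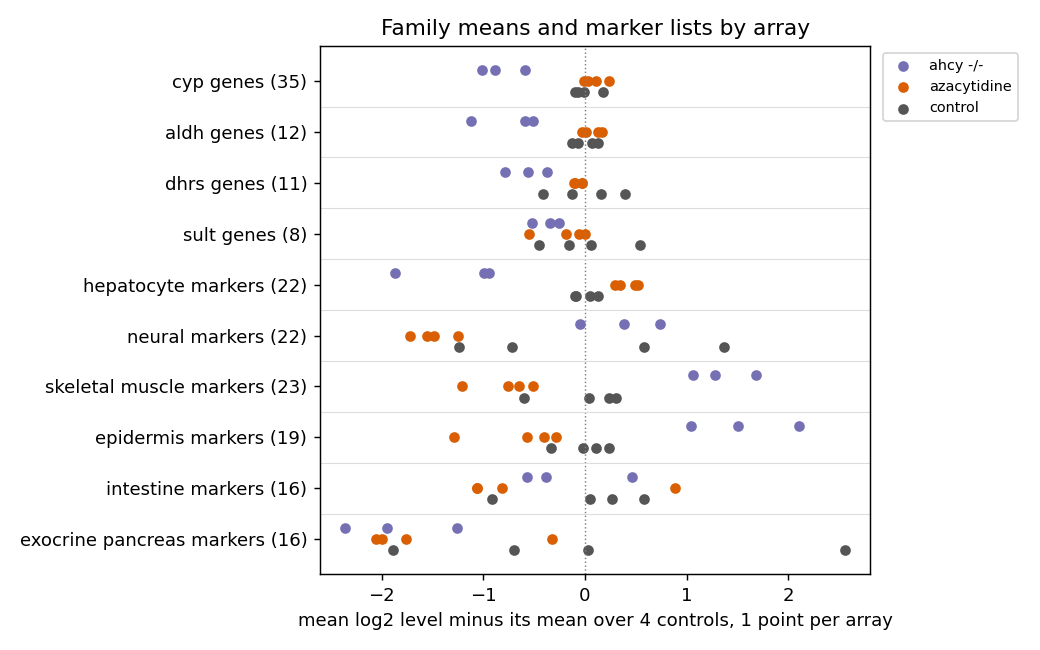
Mean log2 level of 4 enzyme families and 6 marker lists on each array, minus the mean of the 4 controls (x axis); each point is 1 array, and the number of genes is in brackets. The ahcy -/- points lie left of all other points for the cyp, aldh and hepatocyte lists and right of all control points for the muscle and epidermis lists, while control points reach 1.37 for neural and 2.56 for exocrine pancreas markers.

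In azacytidine livers against controls no member passed the test. The smallest p was that of sult3st1, at 5.41, 5.83, 5.42 and 5.2 in azacytidine livers and 4.23, 4.59, 4.43 and 4.87 in controls (0.93 ± 0.21, adjusted p = 0.0721). Next came cyp2x7, described above, and cyp3c1, at 8.17, 8.48, 8.12 and 8.34 in azacytidine livers and 7.12, 7.36, 6.67 and 6.95 in controls (1.25 ± 0.3, adjusted p = 0.0873). These 3 were the only members whose azacytidine levels all lay above the controls, where 3.71% of all probe sets did so, and no member lay wholly below, where 5.26% did. The second probe set of cyp3c1 had a difference of 0.56 ± 0.29 (adjusted p = 0.377).

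The other 3 of the 6 smallest p belonged to cyp26b1, given above, sult4a1 and cyp27a1.1. The difference of sult4a1 was -1.84 ± 0.63 (adjusted p = 0.191), in a comparison in which the 22 neural markers had a median difference of -1.58. A second probe set of sult4a1 differed by only -0.14 ± 0.29 (adjusted p = 0.891). The difference of cyp27a1.1 was 0.75 ± 0.3 (adjusted p = 0.254), at 6.71, 6.55, 6.6 and 6.52 in azacytidine livers and 6.57, 5.88, 5.03 and 5.9 in controls. In the aldehyde dehydrogenases all 12 differences lay between -0.54 and 0.48, and none had an unadjusted p under 0.05. The smallest adjusted p of that family was 0.514, for aldh9a1b (0.48 ± 0.31), and that of the dhrs genes 0.329, for dhrs1 (-0.74 ± 0.34). The absence of calls depended on the setting for 3 members. The gene sult3st1 was called higher with the floor (adjusted p = 0.0275), with cyclic loess (0.042), with median centring (0.0421) and with array weights (0.0269). The gene cyp2x7 was called higher without control 8 (1.67, adjusted p = 0.0338), with cyclic loess (0.0468) and with array weights (0.0407), and cyp3c1 without mutant 3 (1.25, adjusted p = 0.0381) and with array weights (0.028). None of the genes of the 6 lists of receptors, cofactor supply, further enzymes, transferases, transporters and retinoid binding was called by limma, and at an unadjusted p under 0.05 no list held more than 1 higher and 3 lower genes. In that comparison 1 of 22 hepatocyte markers was called higher (median of the list 0.22). Estimates were above 0 for 20 of the 22, and 6 lay wholly above controls, where 3.71% of all probe sets did. At an unadjusted p under 0.05, 7 were higher, where 5.23% of all probe sets were. At that p 17 of 22 neural and 16 of 23 muscle markers were lower, where 9.93% of all probe sets were. What these marker shifts contributed to the differences of the members was not tested.

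Set directly against azacytidine livers, mutants had lower levels of 27 members (40.3%) and higher levels of 7 (10.4%). Of all probe sets 11.1% were lower and 18.2% higher. The lower calls here and against controls shared 19 genes, 90.5% of those called against controls and 70.4% of those called against azacytidine livers; the same mutant arrays enter both. Lower against azacytidine livers but not against controls were aldh18a1, aldh3a2a, cyp20a1, cyp27a1.4, cyp3c1, dhrs13a.1, sult1st3 and sult3st1. For cyp3c1 and sult3st1 the azacytidine arrays were the ones above controls: mutants differed by -1.31 ± 0.33 (adjusted p = 0.0114) and -1.34 ± 0.23 (adjusted p = 0.00156) from azacytidine livers, and by -0.06 and -0.41 from controls. On the second probe set of cyp3c1 the difference from azacytidine livers was -0.59 ± 0.31 (adjusted p = 0.175). Mutant values of sult3st1 lay below the 10th percentile of their arrays. With levels under that percentile set to it, its difference from azacytidine livers was -1.02 (adjusted p = 0.00187). The orphan P450 gene cyp20a1 was at 8.08, 7.66 and 7.34 in mutants, 9.1, 8.66, 8.67 and 8.73 in azacytidine livers and 8.74, 8.63, 8.49 and 8.12 in controls (-1.1 ± 0.26 against azacytidine livers, adjusted p = 0.00883). The fatty aldehyde dehydrogenase gene aldh3a2a (-0.96 ± 0.3, adjusted p = 0.0299) and aldh18a1 (-0.84 ± 0.28, adjusted p = 0.0408) showed smaller differences.

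The smallest adjusted p in this comparison were those of dhrs11b.2 (-4.93 ± 0.24, adjusted p = 3.39e-07), dhrs9 (-2.95 ± 0.2, adjusted p = 4.71e-06), cyp4v2a (-5.48 ± 0.55, adjusted p = 6.32e-05) and cyp2x7. With levels under the 10th percentile set to it, cyp4v2a fell by 2.6 (adjusted p = 0.00164). Higher against azacytidine livers were cyp17a1, cyp26a1, cyp26b1, dhrs3a, dhrs13a.2 (2.7 ± 0.9, adjusted p = 0.0407), sult2st1 and sult4a1.

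In the fits that left out 1 array, 19 of the 27 lower and 3 of the 7 higher calls held throughout; the 3 were cyp17a1, cyp26a1 and cyp26b1. Without mutant 6 the calls of aldh7a1 and sult4a1 were lost (adjusted p of 0.0638 and 0.0825), without mutant 4 or mutant 6 those of cyp27a1.4, cyp3a65 and dhrs3a (up to 0.0702, 0.0527 and 0.086), and without azacytidine 2 or mutant 4 that of dhrs13a.1 (up to 0.0553). The call of sult2st1 was lost in 4 such fits (up to 0.117), those of sult2st2 and aldh3a2a in 5 each (up to 0.109 and 0.119), that of sult1st3 in 6 (up to 0.105), and those of aldh18a1 and dhrs13a.2 in 7 each (up to 0.14 and 0.16). Markers of muscle were higher for all 23 genes in this comparison, those of epidermis for 14 of 19 and those of neurons and glia for 13 of 22, whereas 19 of 22 hepatocyte markers were lower. Of all probe sets 18.2% were higher and 11.1% lower. The hepatocyte markers had a median difference of -1.11, beside -0.63 for the 67 members. The median was -1.02 for the 38 members above the median level of all probe sets and -0.14 for the 29 at or below it.

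The replicates differed among themselves by a median SD over members of 0.47 in mutants, 0.35 in azacytidine livers and 0.39 in controls. An SD over 1 was found for 13 members in mutants, 4 in azacytidine livers and 9 in controls. Mutant arrays differed among themselves: mutant 3 lay below the other mutants by more than 1 unit for dhrs13a.2, dhrs3a and aldh3b1, and below all controls for dhrs13a.2 and aldh3b1, and mutant 6 was the lowest for cyp1a, cyp2x10.2, cyp8b1.1 and sult2st2. On the second probe set of cyp8b1.1 mutant 3 (5.93) lay just below mutant 6 (5.97).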

How the data were processed

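Each of the 11 samples was hybridised to 1 single-colour Affymetrix zebrafish array after 2 rounds of RNA amplification, per the labels' protocols, which name both biotin and Cy3 as label. The deposited values are log2 levels per probe set, already normalised by the authors; the submitters' processing notes name GCRMA and Partek without versions. GCRMA corrects background from probe sequence and equalises the distribution of levels between arrays, so a shift shared by most genes can be removed. The values used here were not fully equal between arrays. Medians over the tested probe sets were 6.13 to 6.17 in mutants, 5.89 to 5.97 in azacytidine livers and 5.97 to 6.14 in controls. Scanner files were not used here.

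Of 12830 probe sets 46 controls were left out and 12784 tested; 8994 carried 1 gene symbol, 110 several and 3680 none. Names came from the platform annotation, and all 67 members kept their symbols in the RefSeq gene table (GRCz12tu), which also gave neighbouring genes. The 3 group means over 11 arrays were fitted with limma 3.58.1 in R 4.3.3 (lmFit, eBayes with trend, 8 residual degrees of freedom), with Benjamini-Hochberg adjustment over all probe sets. The procedure was tested on simulated data with independent noise and added shifts of known size. Those data held no array, clutch or tissue differences, so they cannot show how the fit handles such differences. The number of arrays limits the precision.

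Genes were named by rule: the called members, with values on every array for those with the smallest p of each family and comparison. Members not called, the genes rdh1, rdh10b and rdh12l, and array values of further members were added to complete the groups after their values were seen. The members, roles, marker and pathway lists were chosen with earlier results of these data known. Sample numbers shared between groups were checked for pairing: deviations of the same-numbered arrays correlated between -0.206 and 0.031, so no pairing was used. Alternatives were no variance trend, a robust prior, a filter on probe sets under the 25th percentile, a floor at the 10th percentile, cyclic loess, median centring, 2-group fits, array weights, blocks, averaged probe sets and leaving out arrays.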

Additional observations from a re-analysis of the deposited data

Results flagged for a closer look

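Levels of each member, and the mean of each of 4 families, were compared within the 4 azacytidine livers and within the 4 controls, 142 sets in all, for 1 array whose gap to the next took up more of the group's range than Dixon's critical value allows. It was met in 9 sets (6.34%), where chance gives about 1 in 20, and the groups of 3 mutants were not tested. Control 8 was high for aldh18a1 at 8.5, against 8.18, 8.22 and 8.18 in the other controls, and for aldh3a2a at 7.59, against 6.96, 6.94 and 6.97. Control 2 was high for dhrs13a.3 at 6.35, against 3.43, 3.21 and 3.26 in the other controls. Azacytidine 1 was high for cyp20a1 at 9.1, against 8.66, 8.67 and 8.73 in the other azacytidine livers, and low for dhrs13a.2 at 4.31, against 4.94, 4.97 and 4.88. Azacytidine 6 was low for cyp27a1.4 at 5.72, against 6.53, 6.41 and 6.48. Azacytidine 5 was high for cyp2aa11 at 5.19, against 4.69, 4.71 and 4.77, low for dhrs1 at 7.17, against 8.16, 8.05 and 8.15, and low for sult1st3 at 4.64, against 7.34, 7.01 and 7.46.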

How the results depend on the processing

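No member called in a comparison changed sign in it under any setting tried, whereas several family medians did, and the balance of higher and lower calls over all probe sets turned under centring in both mutant comparisons. The cause of the changes was not tested. In azacytidine livers against controls, where no member was called higher, cyclic loess called 2, median centring 1, the floor 1, array weights 3 and leaving out 1 array 0 to 1. In mutants against controls (2 higher, 21 lower) the higher calls numbered 1 in the fit of only the 2 groups, 5 with array weights, 1 with controls 2 and 4 left out and 0 to 5 with 1 array left out, and the lower calls 13 to 21 with 1 array left out. In mutants against azacytidine livers (7 higher, 27 lower) leaving out 1 array gave 3 to 8 higher and 20 to 27 lower calls. Array weights and median centring added lower calls in both mutant comparisons, among them cyp2aa1 and cyp27a1.4 against controls and aldh4a1 against azacytidine livers. Against controls the fit of only the 2 groups lost lower calls, among them cyp24a1 and cyp27a1.1. Averaged probe sets there called cyp26b1 higher (adjusted p = 0.045) and lost cyp2ad2 (adjusted p = 0.0516).

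Family medians moved as follows. For cyp genes the median turned to -0.04, against 0.11 with all arrays, in azacytidine livers against controls with controls 2 and 4 left out. In mutants against controls it was -1.01 after the filter on dim probe sets, -0.2 with probe sets averaged per gene and -0.64 to -0.32 with 1 array left out. In mutants against azacytidine livers it was -1.09 after that filter, -0.85 with loess, -0.85 with centring, -0.92 with weights and -0.83 to -0.52 with 1 array left out. For dhrs genes in azacytidine livers against controls it turned to 0.07, against -0.36 with all arrays, with controls 2 and 4 left out, and was -0.4 to -0.04 with 1 array left out. For aldh genes it was -1.03 to -0.61 in mutants against controls with 1 array left out, and -1.12 with centring and -1.15 with weights in mutants against azacytidine livers. For sult genes in azacytidine livers against controls it was -0.15, turning to 0.06 without control 8 and 0.03 with the fixed replicate block. With the floor, the differences of ugt2a1, -0.41 in mutants against controls and -0.47 against azacytidine livers, turned to 0.02 and 0.05, and that of 0.06 in azacytidine livers against controls changed sign under the floor and in 3 fits that left out 1 array, and the filter on dim probe sets gave no value for it.

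Deviations of same-numbered arrays correlated at most 0.031, but so few pairs cannot exclude a shared clutch or batch. The replicate number as a fixed block left 2 residual degrees of freedom: it called 0 higher and 0 lower members in mutants against controls and 1 higher and 6 lower against azacytidine livers, and family medians with this block were -0.1 (dhrs, azacytidine livers against controls), -0.01 (dhrs, mutants against controls) and 0.21 (sult, mutants against azacytidine livers, where it was -0.18 without the block). As a random block (correlation 0.029) it changed no call. Centring shifted the median of all probe sets by 0.1 in azacytidine livers against controls, by -0.12 in mutants against controls and by -0.22 in mutants against azacytidine livers. With it, all probe sets split into 618 higher and 890 lower instead of 797 and 750 in mutants against controls, 1629 and 2068 instead of 2329 and 1424 in mutants against azacytidine livers, and 97 and 27 instead of 51 and 23 in azacytidine livers against controls. With 3 or 4 arrays a group, and probe sets near the 10th percentile close to background, differences of dim members such as cyp4v2a, sult3st1 and ugt2a1 are only loosely determined.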

Other observations

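Of the pairs of members that lie close together on the reference assembly, 2 with no coding gene between them differed in direction in mutants against azacytidine livers. The gene dhrs13a.2 was higher and dhrs13a.1 lower, and sult2st1 was higher and sult2st2 lower. None of these calls held in all 11 fits that left out 1 array. They were lost in 7 for dhrs13a.2, 2 for dhrs13a.1, 4 for sult2st1 and 5 for sult2st2. The third pair with no coding gene between them, cyp8b1.1 and cyp8b1.3, was not called in either direction. On the probe set that stood for each gene, mutant 6 was the lowest of all 11 arrays, at 7.43 and 5.11. On a second probe set of cyp8b1.1 mutant 6 was at 5.97, above control 2 at 5.86. Over the 67 members, the correlation of array levels was 0.557 to 0.843 between mutants and controls, 0.895 to 0.957 between azacytidine livers and controls and 0.471 to 0.775 between mutants and azacytidine livers. Within groups it was 0.805 to 0.908 among mutants, 0.933 to 0.961 among azacytidine livers and 0.912 to 0.958 among controls. These correlations run across genes on arrays of 1 platform and describe these arrays only.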
